A study of Mus musculus with 6 samples.

Results

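The 8 genes described here handle glucose and fructose in the hepatocyte: Slc2a2, Gckr, Pfkfb1, Pklr, Khk, Tkfc, Mlxipl and Txnip. They were taken by symbol from a table of 56534 genes or loci, and all 8 were among the 11104 with a mean of at least 1 FPKM over the 6 libraries. FPKM are fragments scaled to the length of the gene and the mapped fragments of the library, so levels of different genes are compared per length. Liver RNA came from C57BL/6 mice of 2 groups. The LKO group (3 libraries) has the genotype CD36-/- in the labels and is called a hepatocyte-specific knockout in the title of the series. CD36 is a cell-surface receptor that takes up long-chain fatty acids. The CON group (3 libraries) is wild type. Animals of both groups ate a high-fat diet, with 60% of its calories from fat, for 16 weeks. The sources used here do not give the driver of the deletion, sex, age or time of collection. Nor do they say that the libraries of a group are separate animals. The p-values therefore set the group difference against the spread between libraries, which may be technical.

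Hepatocytes take up glucose through GLUT2, encoded by Slc2a2, and trap it by phosphorylation with glucokinase, which the protein of Gckr holds inactive in the nucleus. Glycolysis is then tuned by fructose 2,6-bisphosphate, made and removed by the enzyme of Pfkfb1, and ends at the liver pyruvate kinase of Pklr. Fructose is phosphorylated by ketohexokinase (Khk), and triokinase (Tkfc) acts further down its path. Sugar phosphates activate ChREBP (Mlxipl), a transcription factor that pairs with MLX and binds tandem E-boxes called carbohydrate response elements. Pklr and Txnip are textbook ChREBP target genes, and TXNIP is an alpha-arrestin that binds thioredoxin and restrains glucose uptake.

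The promoter stretches below are shown because Pklr and Txnip, both known targets of Mlxipl, had log2 fold changes of opposite sign. The groups of Txnip overlapped (limma adjusted p = 0.275). Mlxipl itself was at 0.01 as deposited and at 0.28 after the median-ratio scaling explained below. Each stretch is the 250 bases before a RefSeq start site (build GRCm38.p6, plus strand, 5′ to 3′). Capitals mark matches on either strand to 3 motifs: a tandem E-box with a spacer of fixed length (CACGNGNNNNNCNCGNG), the single E-box CACGTG and an HNF1-type motif (GTTANNNNTTAAC). The letters were chosen knowing the published elements of Pklr and Txnip, so these matches are no test.
Pklr, chr3:89136373-89136622: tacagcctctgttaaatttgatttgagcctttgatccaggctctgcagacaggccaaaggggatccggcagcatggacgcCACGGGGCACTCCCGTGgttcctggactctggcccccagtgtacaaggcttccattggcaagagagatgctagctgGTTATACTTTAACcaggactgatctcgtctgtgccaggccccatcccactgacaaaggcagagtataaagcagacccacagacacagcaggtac
Txnip, chr3:96557707-96557956: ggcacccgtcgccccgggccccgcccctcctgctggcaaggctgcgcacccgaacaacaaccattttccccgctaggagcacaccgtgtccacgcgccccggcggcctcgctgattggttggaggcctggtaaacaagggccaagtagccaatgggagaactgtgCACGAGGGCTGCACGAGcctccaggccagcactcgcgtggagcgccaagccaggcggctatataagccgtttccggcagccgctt
Mlxipl, chr5:135089640-135089889: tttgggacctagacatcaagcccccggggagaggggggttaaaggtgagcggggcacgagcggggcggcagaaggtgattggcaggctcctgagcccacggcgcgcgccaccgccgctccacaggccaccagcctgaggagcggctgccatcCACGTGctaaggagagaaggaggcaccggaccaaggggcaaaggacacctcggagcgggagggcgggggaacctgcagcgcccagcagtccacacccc
The tandem E-box lay at positions -170 to -154 from the start site in Pklr (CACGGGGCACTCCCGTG) and at -85 to -69 in Txnip (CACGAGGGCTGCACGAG). It was found in 0.28% of the 32851 RefSeq windows of the same length. The HNF1-type match of Pklr lay at -94 to -82, and 0.17% of all windows held such a match. The single E-box lay at -98 to -93 in the upstream of 2 Mlxipl windows and at -71 to -66 in Khk, against 6.02% of all windows. The 8 genes had 13 windows in all. The windows of Slc2a2, Gckr, Tkfc and Pfkfb1 held none of these letters. The gene-level values do not separate transcripts from the 2 starts of Mlxipl or of Pklr.

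Before the results, facts of the libraries that touch them are given. Cd36, the deleted gene, was at 2.73, 3.70 and 10.22 FPKM in LKO 1, 2 and 3, against 61.95, 26.49 and 19.66 FPKM in CON 1, 2 and 3. The groups did not overlap, and LKO 3 lay closest to CON (log2 fold change -2.50, limma adjusted p = 0.163; exact two-sided permutation p = 0.1, the smallest that 3 against 3 libraries allow). The log2 values of long genes deviated differently among the libraries. The Spearman rho of a library's deviation with gene length was -0.33, -0.30 and 0.21 in LKO 1, 2 and 3 and 0.27, 0.10 and 0.29 in CON 1, 2 and 3. LKO 3 therefore stood with CON in this respect, and its part in the results was not tested beyond the values without it given below. Transcripts of the major urinary protein (Mup) genes made up 29.4%, 28.9% and 23.9% of the summed FPKM in LKO 1, 2 and 3, against 6.22%, 15.6% and 22.1% in CON 1, 2 and 3, with no overlap. Transcripts of the mitochondrial genome made up 4.14% to 10.15% in LKO, with LKO 2 the highest library, and 3.88% to 6.18% in CON. The part of both in the results was not tested. The depth in reads is unknown. The median log2 fold change of all tested genes was -0.23 with FPKM as deposited and -0.01 after median-ratio scaling, in which each library is divided by its median ratio to the mean profile. Fold changes below are as deposited unless called scaled, and are read against these medians.

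All 7 hepatocyte markers were above 1 FPKM in every library, and their sum ranged from 44066 to 53329 FPKM in LKO and from 48676 to 68855 FPKM in CON. The 7 Kupffer cell and macrophage markers summed to 88.4 to 164.5 FPKM in LKO and 118 to 165 FPKM in CON. The 6 sinusoidal endothelial markers summed to 39.5 to 55.9 and 30.7 to 88.3 FPKM in LKO and CON, and the 6 stellate cell and fibroblast markers to 96.3 to 142 and 101 to 107 FPKM. The 5 cholangiocyte markers summed to 34.1 to 74.9 FPKM in LKO and 29.4 to 51.5 FPKM in CON, and the 5 lymphocyte markers to 2.79 to 4.78 and 3.39 to 3.93 FPKM. No marker was at 0 in any library, and the sums of the groups overlapped for all 6 cell types. Single markers differed within these sums. Apoa1, a hepatocyte marker, was at 0.72 (LKO over CON) without overlap of the groups and lay higher at an unadjusted p under 0.05, while Alb was at -0.70. Adgre1, a macrophage marker, lay lower at that p (-1.01), with groups that overlapped. The part of these markers in the results was not tested. In such bulk RNA, fewer cells of a type and less RNA per cell cannot be told apart.

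By limma over all genes, none of the 8 passed the threshold (adjusted p from 0.176 to 0.964). At an unadjusted p under 0.05, 2 of the 8 lay lower in LKO, Pklr and Slc2a2, beside 18.9% of all tested genes, and 0 lay higher, beside 3.25%. The same 2 genes had groups that did not overlap, beside 24.3% of all genes in that direction, and 0 did in the higher direction, beside 3.92%. The median log2 fold change of the 8 was -0.28, close to that of all genes, with 4 above and 4 below it. At an adjusted p under 0.05, 1 of all tested genes lay lower (0.00901%) and 0 higher (0%). After scaling, 2 of the 8 lay lower at an unadjusted p under 0.05, beside 8.37% of all genes, and 1, Txnip, lay higher, beside 9.64%.

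**Figure D1:**
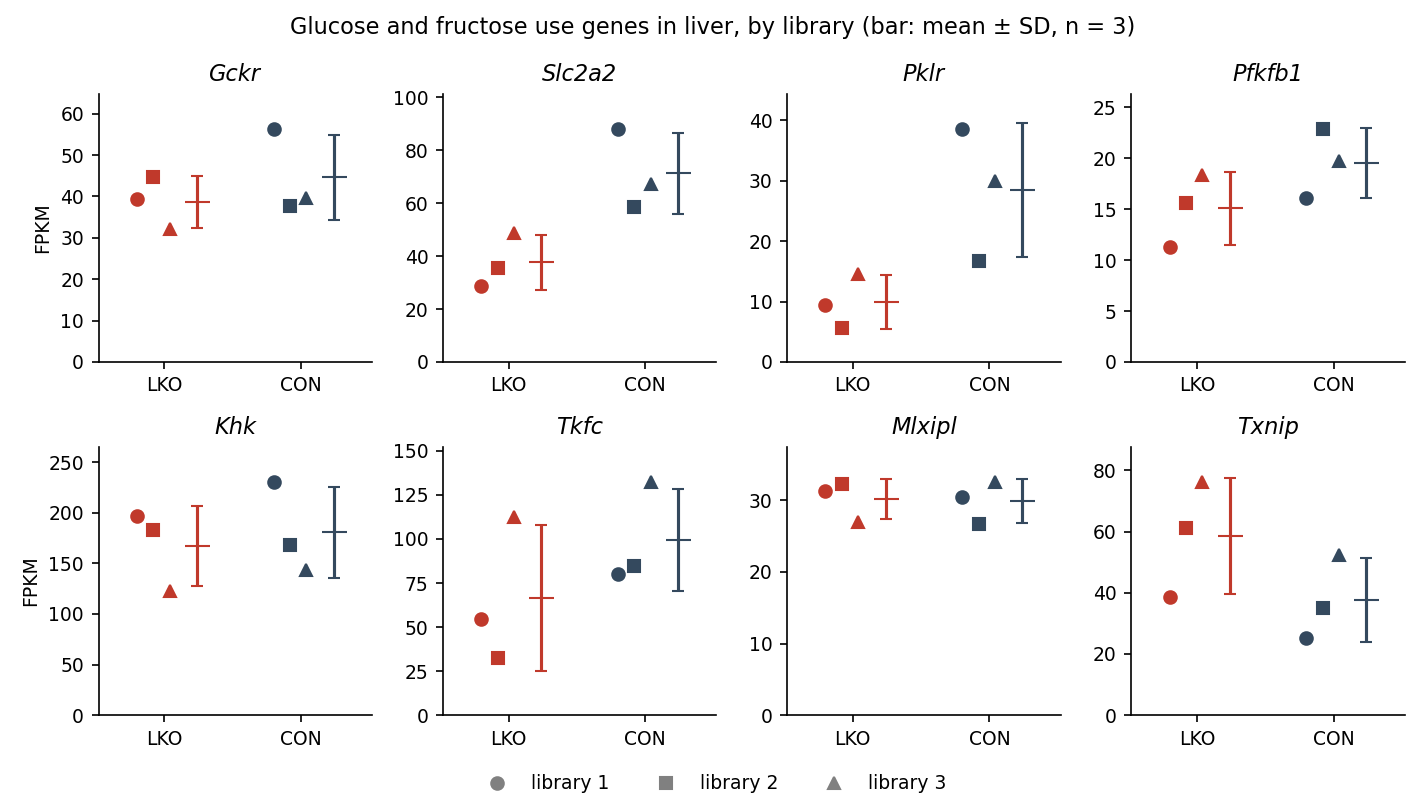
FPKM of the 8 genes in each library (symbols mark library numbers 1 to 3; LKO red, CON dark blue; the bar is the mean ± SD of 3 libraries). Slc2a2 and Pklr are the genes whose LKO and CON values do not overlap, and Mlxipl spans 26.64 to 32.59 FPKM over all 6 libraries.

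In LKO the mean level ran from Khk (167.5 FPKM) through Tkfc (66.5), Txnip (58.7), Gckr (38.7), Slc2a2 (37.6), Mlxipl (30.2) and Pfkfb1 (15.1) to Pklr (9.90 FPKM). In CON the order of mean FPKM was Khk (180.6), Tkfc (99.2), Slc2a2 (71.3), Gckr (44.6), Txnip (37.55), Mlxipl (29.9), Pklr (28.4) and Pfkfb1 (19.6). The genes that changed places were Slc2a2, Txnip and the pair Pklr and Pfkfb1. Many neighbours lay within the larger of their SDs of each other. These were Tkfc and Txnip, Gckr and Slc2a2, and Slc2a2 and Mlxipl in LKO, and in CON all neighbours apart from Khk and Tkfc and from Slc2a2 and Gckr.

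Slc2a2 (ENSMUSG00000027690), the glucose transporter of the hepatocyte membrane facing the blood, was at 28.68, 35.32 and 48.80 FPKM in LKO 1, 2 and 3, against 88.22, 58.51 and 67.24 FPKM in CON 1, 2 and 3. All 3 LKO values were under the lowest CON value, with LKO 3 the highest of its group. The mean was 37.6 ± 10.3 FPKM in LKO and 71.3 ± 15.3 FPKM in CON (SD, n = 3 each). The log2 fold change was -0.92 (SE 0.25, 95% interval -1.49 to -0.34, limma adjusted p = 0.176), and 4.61% of tested genes had a lower one. Scaled, it was -0.65 (SE 0.21, adjusted p = 0.262), and the groups still did not overlap. At 5569 bases Slc2a2 is the longest of the 8 genes. With the length trend of each library removed the log2 fold change was -0.56.

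Gckr (ENSMUSG00000059434), which encodes the glucokinase regulatory protein, was at 39.30, 44.73 and 32.13 FPKM in LKO 1, 2 and 3 and at 56.44, 37.77 and 39.70 FPKM in CON 1, 2 and 3. The groups overlapped, and CON 1 was the highest library. The log2 fold change of -0.19 (SE 0.22, 95% interval -0.69 to 0.31, limma adjusted p = 0.591) turned to 0.07 after scaling. Within a library, the ratio of Gckr to Slc2a2 was 1.37, 1.27 and 0.658 in LKO 1, 2 and 3, against 0.640, 0.646 and 0.590 in CON 1, 2 and 3. A ratio within a library does not change when that library is divided by a single factor. It can still follow the length trend given above, since Gckr has 4014 bases and Slc2a2 5569. The part of that trend in the ratio was not tested. The ratio in LKO 1 and LKO 2 lay well above the narrow CON range, and that in LKO 3 lay just above it. Slc2a2 alone already had groups that did not overlap, so the ratio is no added test.

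Pklr (ENSMUSG00000041237), the pyruvate kinase of the last step of glycolysis, was at 9.38, 5.69 and 14.62 FPKM in LKO 1, 2 and 3, against 38.65, 16.65 and 29.98 FPKM in CON 1, 2 and 3. The groups did not overlap, but LKO 3 and CON 2 were close to each other. The mean was 9.90 ± 4.49 FPKM in LKO and 28.4 ± 11.1 FPKM in CON (SD, n = 3 each), 2.87-fold higher in CON. The log2 fold change was -1.44 (SE 0.38, 95% interval -2.33 to -0.55, limma adjusted p = 0.176), and 0.856% of tested genes had a lower one. It was -1.19 (SE 0.33, adjusted p = 0.256) after scaling and -1.18 with the length trend removed. Pkm, the muscle-type pyruvate kinase that other cells use, is named here for its role. It was at 5.93 ± 0.842 FPKM in LKO and 5.89 ± 1.40 FPKM in CON (SD, n = 3 each).

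Pfkfb1 (ENSMUSG00000025271), the bifunctional enzyme that sets the level of fructose 2,6-bisphosphate in liver, was at 11.30, 15.59 and 18.36 FPKM in LKO 1, 2 and 3 and at 16.07, 22.93 and 19.75 FPKM in CON 1, 2 and 3. The groups overlapped, since LKO 3 lay above CON 1. Its log2 fold change of -0.37 (SE 0.23, 95% interval -0.89 to 0.16, limma adjusted p = 0.336) was -0.11 after scaling. Pfkfb1 had the lowest CON mean of the 8, at 19.6 ± 3.43 FPKM, although the difference from Pklr was smaller than the SD of Pklr.

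**Figure D2:**
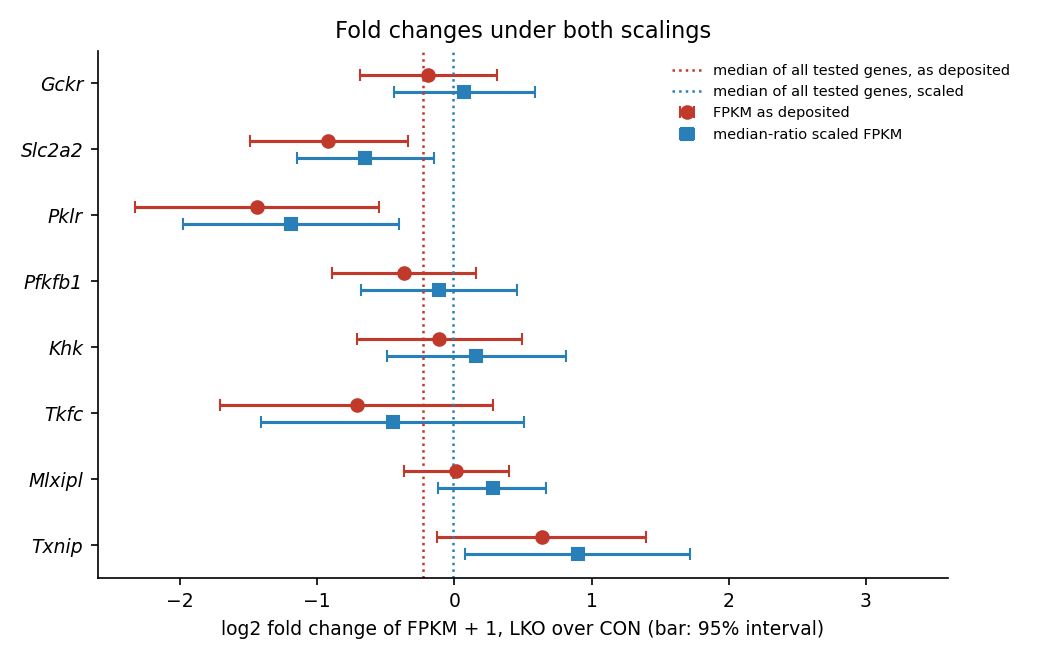
Log2 fold change of FPKM + 1, LKO over CON, for each of the 8 genes with its 95% interval from limma, as deposited (red circles) and after median-ratio scaling (blue squares); dotted lines are the medians of all tested genes, -0.23 and -0.01. The points of Pklr, Slc2a2 and Tkfc lie left of both lines under either scaling, and those of Txnip and Mlxipl lie to the right of both.

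Khk (ENSMUSG00000029162), which phosphorylates fructose at its entry into metabolism, was at 197.24, 182.64 and 122.70 FPKM in LKO 1, 2 and 3 and at 230.61, 168.11 and 143.16 FPKM in CON 1, 2 and 3. It was the most abundant of the 8 in every library, and the groups overlapped. Its log2 fold change of -0.11 (SE 0.26, 95% interval -0.71 to 0.49, limma adjusted p = 0.806) turned to 0.16 after scaling.

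Tkfc (ENSMUSG00000034371), the triokinase that phosphorylates the glyceraldehyde split from fructose 1-phosphate, was at 54.67, 32.31 and 112.63 FPKM in LKO 1, 2 and 3 and at 80.26, 84.89 and 132.45 FPKM in CON 1, 2 and 3. LKO 1 and LKO 2 lay below every CON library, whereas LKO 3 lay within the CON range. Its log2 fold change was -0.71 (SE 0.43, 95% interval -1.71 to 0.28, limma adjusted p = 0.326) and -0.45 after scaling (adjusted p = 0.545). The ratio of Tkfc to Khk within a library was 0.277, 0.177 and 0.918 in LKO 1, 2 and 3 and 0.348, 0.505 and 0.925 in CON 1, 2 and 3. It was highest in LKO 3 and CON 3, and the spread within each group exceeded the difference between the groups.

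Mlxipl (ENSMUSG00000005373), encoding ChREBP, was at 31.36, 32.24 and 27.03 FPKM in LKO 1, 2 and 3 and at 30.52, 26.64 and 32.59 FPKM in CON 1, 2 and 3. The groups overlapped fully, with means of 30.2 ± 2.79 FPKM in LKO and 29.9 ± 3.02 FPKM in CON (SD, n = 3 each). Its value on the log2 scale was 0.01, LKO over CON (SE 0.17, limma adjusted p = 0.964), with a 95% interval of -0.37 to 0.40. After scaling it was 0.28, with an interval of -0.12 to 0.67. RNA levels of the gene say nothing of the activity of the protein or of its isoforms.

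Txnip (ENSMUSG00000038393) was at 38.48, 61.18 and 76.30 FPKM in LKO 1, 2 and 3 and at 25.26, 35.08 and 52.31 FPKM in CON 1, 2 and 3. The groups overlapped, since LKO 1 lay below CON 3. The mean was 58.7 ± 19.0 FPKM in LKO and 37.55 ± 13.7 FPKM in CON (SD, n = 3 each). The log2 fold change of 0.64 (SE 0.33, 95% interval -0.13 to 1.40, limma adjusted p = 0.275) was higher than that of 96.0% of tested genes. It was 0.90 after scaling (SE 0.35, 95% interval 0.08 to 1.72, adjusted p = 0.266), where the groups still overlapped.

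**Figure D3:**
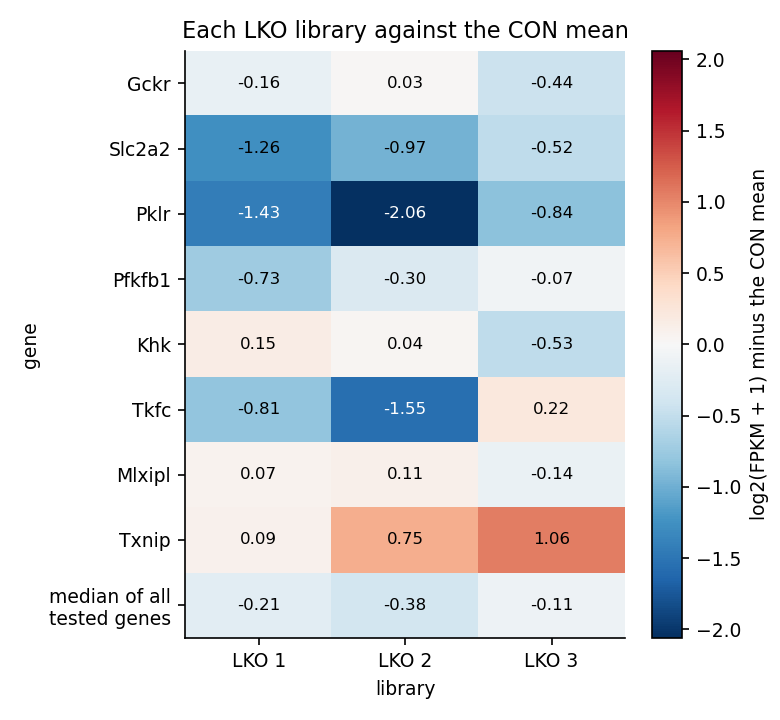
Deviation of log2(FPKM + 1) from the CON mean in each LKO library, for the 8 genes and for the median of all tested genes (red above, blue below). Pklr, Slc2a2 and Pfkfb1 lie below the CON mean in all 3 LKO libraries, as does the median of all genes (-0.21, -0.38 and -0.11 in LKO 1, 2 and 3), and Txnip lies above it, while Tkfc is at -0.81, -1.55 and 0.22.

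The known ChREBP targets Pklr and Txnip were set beside each other after their values had been seen, so their ratio is a description with no test. The ratio of Txnip to Pklr within a library was 4.10, 10.8 and 5.22 in LKO 1, 2 and 3, against 0.654, 2.11 and 1.74 in CON 1, 2 and 3. The groups did not overlap. The ratio of Pklr to Mlxipl was 0.299, 0.177 and 0.541 in LKO 1, 2 and 3, against 1.27, 0.625 and 0.920 in CON 1, 2 and 3, again without overlap. Pklr alone already had groups that did not overlap, so both ratios that hold it are no added test. The ratio of Txnip to Mlxipl was 1.23, 1.90 and 2.82 in LKO 1, 2 and 3 and 0.828, 1.32 and 1.61 in CON 1, 2 and 3, and here LKO 1 lay inside the CON range.

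**Figure D4:**
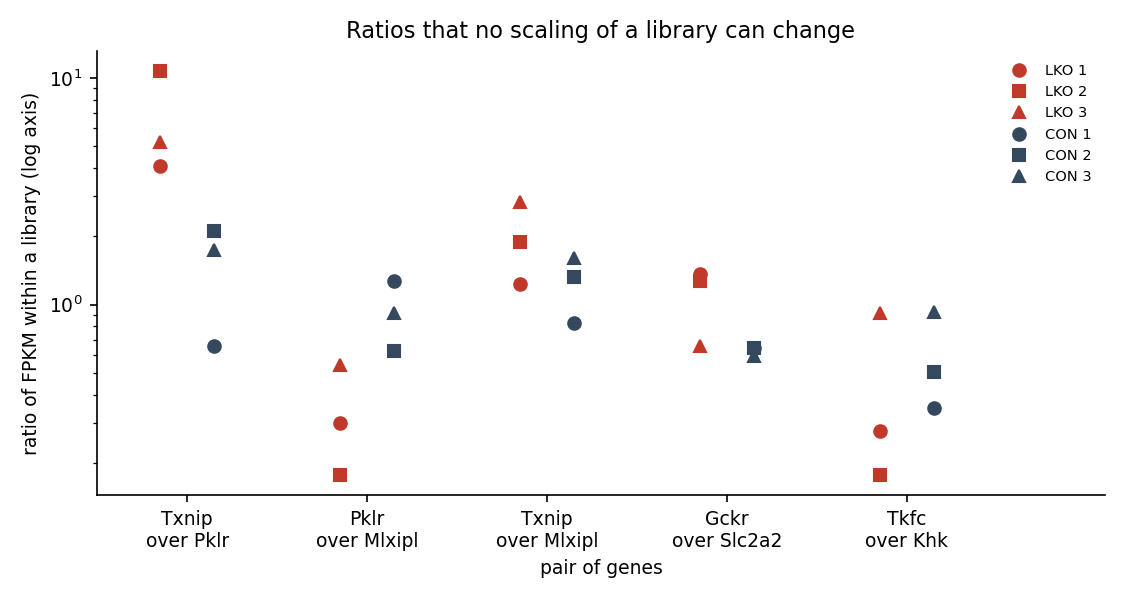
Ratio of the FPKM of a pair of genes within each library, on a log axis (LKO red and left, CON dark blue and right; symbols mark library numbers 1 to 3). The ratios of Txnip to Pklr, Pklr to Mlxipl and Gckr to Slc2a2 do not overlap between the groups. Those of Txnip to Mlxipl and Tkfc to Khk do. Pklr and Slc2a2 were without overlap on their own, so the ratios that hold them are no added test. The share of all gene pairs without overlap was not computed.

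Without LKO 3, 3 of the 8 genes passed the threshold over all genes, all lower in LKO, beside 19.0% of all tested genes in that direction. They were Pklr (log2 fold change -1.74, limma adjusted p = 0.0254, range over its alternative settings 0.0254 to 0.486), Slc2a2 (-1.12, adjusted p = 0.0224, range 0.0224 to 0.486) and Tkfc (-1.18, adjusted p = 0.0364, range 0.0364 to 0.708). In that fit 4.60% of genes passed in the higher direction, and none of the 8 did. Both libraries left in LKO share the negative length trend given above, which no CON library shows, so group and trend cannot be told apart there. Tkfc was at -0.30 without LKO 2.

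Other genes of the same pathways came from lists chosen by role. No member of any list passed over all genes, and the counts below are at an unadjusted p under 0.05, to be read against 18.9% of genes lower and 3.25% higher as deposited, and against 8.37% lower and 9.64% higher after scaling. Of 15 tested enzymes of glycolysis, 4 lay lower and 0 higher, with a list median of -0.13 against -0.23 for all genes. The smallest p were those of Pfkl, the liver phosphofructokinase (4.29, 3.62 and 5.60 FPKM in LKO 1, 2 and 3, against 9.91, 7.47 and 6.50 FPKM in CON 1, 2 and 3; log2 fold change -0.70), Pgk1 (-0.71), Pfkm (-0.73) and Tpi1 (-0.46). After scaling, Pfkl was at -0.47 and was the member of the list that lay lower at that p. The count of the list was then 1 lower and 2 higher, beside 8.37% and 9.64% of all genes, and its median 0.05. Those 2, named after their values were seen, were Aldoa (0.73 scaled, 0.46 as deposited) and Gpi1 (0.70 scaled, 0.43 as deposited).

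Of 8 tested genes of fructose and polyol handling, 5 lay lower and 0 higher, with a median of -0.67, and after scaling 4 lay lower and 1 higher, with a median of -0.42, beside 8.37% and 9.64% of all genes. The 1 higher gene, named after its values were seen, was Akr1b3, an aldose reductase (0.54 scaled, 0.31 as deposited). Slc2a5, the fructose transporter GLUT5, was at 1.32, 1.12 and 2.53 FPKM in LKO 1, 2 and 3, against 4.35, 3.12 and 7.44 FPKM in CON 1, 2 and 3 (log2 fold change -1.14, SE 0.31, limma adjusted p = 0.179). Slc2a9, a carrier of urate and hexoses, was at 6.08, 6.29 and 7.47 FPKM in LKO and 15.35, 11.21 and 11.11 FPKM in CON (log2 fold change -0.82, SE 0.19). Sord, the sorbitol dehydrogenase that makes fructose, was at 311.08, 357.86 and 542.94 FPKM in LKO and 815.03, 651.46 and 628.77 FPKM in CON (-0.82, SE 0.25). Aldh1b1, a mitochondrial aldehyde dehydrogenase, was at -1.18 (SE 0.34). None of these 4 genes, which were named for the smallest p in the list, had groups that overlapped, beside 24.3% of all genes that lay lower without overlap.

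Mlxip was listed beside Mlx, and encodes MondoA, a sister factor of ChREBP and not its partner. It was at 5.09, 3.10 and 1.12 FPKM in LKO 1, 2 and 3 and at 1.03, 0.88 and 1.28 FPKM in CON 1, 2 and 3. LKO 1 and LKO 2 lay above every CON library and LKO 3 within their range (log2 fold change 0.87, SE 0.36, limma adjusted p = 0.217). Mlx, the obligate partner of ChREBP, was at 14.7 ± 2.68 FPKM in LKO and 16.3 ± 0.977 FPKM in CON (SD, n = 3 each, limma adjusted p = 0.616).

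Of 17 tested genes known as ChREBP targets, 16 had a negative log2 fold change as deposited, as had 71.6% of all tested genes. A value under the all-gene median of -0.23 was held by 15. After scaling, 14 were negative and 3 positive, and 51.4% of all genes were negative. At an unadjusted p under 0.05, 5 lay lower and 0 higher, and the counts at that p were the same after scaling. The list median was -0.54 as deposited and -0.27 scaled. Several of these genes are also known SREBP1 targets. The smallest p were those of Fasn, Thrsp, Me1 and Acly. Me1, the malic enzyme that supplies NADPH, was at 13.35, 6.30 and 5.86 FPKM in LKO 1, 2 and 3, against 33.71, 21.58 and 20.07 FPKM in CON 1, 2 and 3 (log2 fold change -1.51, SE 0.33, limma adjusted p = 0.165). Acly, the ATP citrate lyase, was at 3.76, 3.69 and 8.34 FPKM in LKO and 20.47, 12.05 and 12.67 FPKM in CON (-1.40, SE 0.33, adjusted p = 0.166). Me1 and Acly were named for the smallest p in the list. Their groups did not overlap, as was so for 6 of the 17 genes, all lower in LKO, beside 24.3% of all genes. Both kept their side after scaling (-1.26 and -1.16). Arrdc4, the closest relative of Txnip and named for it, was at 1.83, 2.0 and 1.33 FPKM in LKO and 3.34, 2.0 and 2.38 FPKM in CON (-0.38, SE 0.21, adjusted p = 0.294), on the other side of 0 from Txnip.

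**Figure D5:**
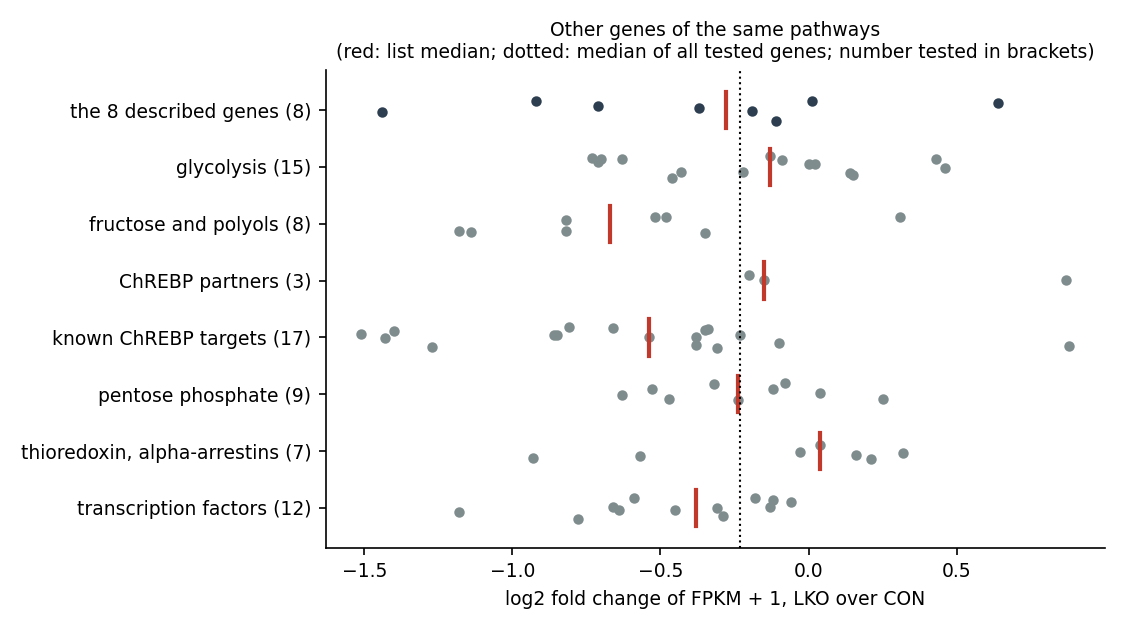
Log2 fold change of FPKM + 1, LKO over CON, of the 8 genes and of the tested genes of each pathway list with at least 3 tested (points; vertical jitter has no meaning), with list medians in red and the median of all tested genes, -0.23, dotted. The known ChREBP targets and the fructose and polyol genes lie mostly left of the dotted line, with medians of -0.54 and -0.67, and the glycolysis list has a median of -0.13. The list marked ChREBP partners also holds genes that are not its partners, such as Mlxip.

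Of 9 tested genes of the pentose phosphate pathway, 2 lay lower and 0 higher, with a median of -0.24. After scaling 1 lay lower and 0 higher, with a median of -0.08, beside 8.37% and 9.64% of all genes. Pgd, the phosphogluconate dehydrogenase, was at -0.63 (SE 0.22, scaled -0.39), Dera at -0.47 (SE 0.18, scaled -0.21), Rpe at -0.32 and H6pd at -0.53. Of 7 tested genes of the thioredoxin system and alpha-arrestins, 0 lay lower or higher at that p (limma), and the median was 0.04. Arrdc3 was at 23.0 ± 10.3 FPKM in LKO and 48.3 ± 28.6 FPKM in CON, Txnrd1 at 33.1 ± 21.0 and 44.4 ± 7.79 FPKM, Arrdc1 at 1.33 ± 0.247 and 1.0 ± 0.188 FPKM and Arrdc2 at 4.93 ± 2.10 and 3.68 ± 1.18 FPKM in LKO and CON (SD, n = 3 each). Of the other glucose transporter genes, 2 of 8 were tested. Slc37a4, the glucose 6-phosphate carrier of the endoplasmic reticulum, was at -0.41 (SE 0.32) and Slc2a1 at -0.11 (SE 0.20), and the rest averaged under 1 FPKM.

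Of 12 transcription factors known to bind promoters of these genes, 12 had a negative log2 fold change as deposited, beside 71.6% of all genes, and 8 after scaling, beside 51.4%. At an unadjusted p under 0.05, 2 lay lower under either scaling, beside 18.9% of all genes as deposited and 8.37% scaled. Those 2 were Srebf1 (-1.18, SE 0.32) and Nr5a2, the liver receptor homolog (6.21, 5.38 and 8.94 FPKM in LKO 1, 2 and 3, against 15.43, 10.74 and 11.09 FPKM in CON 1, 2 and 3; -0.78, SE 0.23, limma adjusted p = 0.179). Usf2 was at -0.66 (SE 0.32) and Foxa2 at -0.64 (SE 0.32), with groups that overlapped.

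The genes whose library profile was most like that of each of the 8 were found by the root mean square difference of log2(FPKM + 1), each profile centred on its mean over the 6 libraries. With 6 libraries and 11104 genes, close matches are many, so they are a description. The profile of Slc2a2 was closest to Gse1 (0.04), Zbtb7a (0.08) and Bnip2 (0.10), and 41 genes lay within 0.15 of it. That of Pklr was closest to Klb, the FGF co-receptor (0.22), Taco1 (0.22) and Trim14 (0.24), with no gene within 0.15. The profile of Txnip was likewise without a near match, and the closest were Arhgef10 (0.24), the locus AC161438.1 (0.24) and Gnl3 (0.25). Tkfc was closest to Hnrnpa3 (0.14), Iars (0.14) and Txnrd1 (0.15). Khk was closest to Galt, the galactose enzyme (0.06), Mzt2 (0.07) and Rexo5 (0.08), with 108 genes within 0.15. Near Gckr lay Htra2 (0.05) and Cwf19l1 (0.06), with 216 genes within 0.15. Pfkfb1 was closest to Il18bp (0.09), Proser3 (0.09) and Cd163 (0.10), with 28 genes within 0.15. Mlxipl, whose own profile spread by 0.11, had 836 genes within 0.15, with Zkscan3 (0.03), Lamc1 (0.04) and Nsun5 (0.04) closest.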

How the data were processed

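Liver RNA-seq of 3 LKO and 3 CON libraries was analysed. The deposited values are FPKM per gene, which the authors computed and gave with 2 decimals. HISAT2, StringTie and the build mm9 are named in the submitters' processing notes, with versions, annotation and strand setting not stated there. A gene length in bases is deposited beside them, per the file headers. Of 56536 lines, 2 held no values. No counts are given, so the depth is unknown and no count model was fitted. FPKM are relative to the library, so a few abundant transcripts move all other genes.

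Genes with a mean of at least 1 FPKM were taken to log2(FPKM + 1), which understates the change of low genes, and tested with limma 3.58.1 in R 4.3.3 (group as the only term, mean-variance trend, two-sided). Adjustment was Benjamini-Hochberg over all 11104 genes, with a threshold of 0.05. The fit was tested on simulated data. The 8 genes and the lists were chosen with earlier results of these data known. The rule for naming gave every one of the 8, up to 4 genes of each list with the smallest unadjusted p, the 3 nearest library profiles (symbols other than Gm or Rik numbers) and Cd36. Genes named for their role are said to be so. Alternatives were the pseudocount (0.1), the filter, median-ratio and quantile scaling, removal of the length trend, a replicate block and each library left out. Promoter windows are from RefSeq (GRCm38.p6) and not of the build in the notes, and were matched by symbol (8 of 8 genes). Some genes of these lists and profiles are not reported here.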

Additional observations from a re-analysis of the deposited data

How the results depend on the processing

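Over 13 alternative settings, Pklr (-1.77 to -1.13), Slc2a2 (-1.12 to -0.56), Tkfc (-1.18 to -0.30), Pfkfb1 (-0.51 to -0.11) and Txnip (0.39 to 0.91) kept the sign of their log2 fold change, and Pklr, Slc2a2 and Tkfc passed without LKO 3 alone. The sign of the others changed: Gckr was at 0.07 after median-ratio scaling and 0.12 with the length trend removed, and Khk at 0.16 and 0.01. With a library left out, Khk ranged from -0.26 to 0.10 and Mlxipl from -0.06 to 0.09. The cause was not tested.

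The number of genes lower at an adjusted p under 0.05 (limma) was 0 with a pseudocount of 0.1, with no filter, with a mean of at least 5 FPKM, with the length trend removed and with the replicate block, against 1 as reported. At an unadjusted p under 0.05, 2115, 2530, 1344, 941 and 2234 genes were lower under these settings. Counts higher at that p were 558 with no filter, where the median of all genes was -0.02, and 229 with a mean of at least 5 FPKM. There were 1070 higher and 929 lower genes after median-ratio scaling, 934 and 1075 after quantile normalization, and 992 and 941 with the length trend removed. In these 3 settings, which centre the libraries, the median of the 8 genes was -0.02, -0.09 and -0.05 and that of all genes -0.01, -0.02 and 0. Of the 8 genes, 1 (Txnip) was higher at that p under median-ratio scaling, the length trend and the replicate block, and with that block 3 rather than 2 were lower, since Tkfc was added. With a library left out, 0 to 511 genes were higher and 0 to 2115 lower at the adjusted threshold, and 151 to 951 higher and 934 to 3666 lower at an unadjusted p. The highest number of each range came without LKO 3. Over all fits with a library left out, 0 to 3 of the 8 passed, 0 to 1 was higher at an unadjusted p, and Cd36 ranged from -2.98 to -2.03. Deviations from the group mean correlated at -0.05, 0.17 and 0.07 between same-numbered libraries, and at -0.16 to 0.06 between the others. With 3 libraries per group these values cannot decide whether the numbers pair the libraries.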
